A study of Homo sapiens with 4 samples.

Results

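The core subunits of the anaphase-promoting complex (APC/C) were examined in MCFDCIS cells, a breast cancer line of the basal subtype, transfected with control siRNA or with siRNA against Slug. The members were the 10 genes ANAPC1, ANAPC2, ANAPC4, ANAPC5, ANAPC7, ANAPC10, ANAPC11, CDC16, CDC23 and CDC27, taken by gene symbol from the platform annotation. They had 18 of the 47323 probes on the array. The set was chosen by 1 measured value: the log2 fold change of ANAPC1, which had passed the threshold as lower after Slug siRNA in this same comparison, and the question was whether ANAPC1 was low alone or together with its complex. The value of ANAPC1 that passed is therefore a description, with no test. The other 9 genes were taken as its complex partners, not for their values.

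Both groups were the same line, not treated with anything else that the labels name. The cells were lysed at 72 hours, and their RNA was read on 4 Illumina bead arrays of 1 chip, 2 named as biological replicates of control siRNA and 2 of Slug siRNA. Nothing in the labels ties the replicates to separate days. The p-values rest only on the spread of these 4 arrays. For each probe, limma draws the variance towards that of all probes used (prior degrees of freedom 5.1, residual 2). An exact permutation test of 2 against 2 arrays cannot go below p = 0.333. The siRNA acts transiently, and SNAI2, the gene of Slug, kept 73.9% of its control level on its brighter probe. That probe read 579 and 600.5 intensity units with control siRNA, and 483 and 476 with Slug siRNA. The difference was -0.44 on the log2 scale (SE 0.16), and with a limma adjusted p of 0.316 the knockdown itself did not pass over all probes. The second SNAI2 probe kept 77.1% of its control level, a log2 difference of -0.37 (limma adjusted p = 0.429).

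The APC/C is a ubiquitin ligase that marks cyclins and securin for destruction, which lets sister chromatids separate and cells leave mitosis. ANAPC1, ANAPC4 and ANAPC5 form its scaffold, ANAPC2 (a cullin) and ANAPC11 (a RING protein) its catalytic centre, and CDC16, CDC23, CDC27 and ANAPC7, which carry tetratricopeptide repeats, an arm that docks the coactivators. ANAPC10 helps the coactivator hold the destruction signals of substrates. Subunits are needed in every dividing cell, and loss of a scaffold subunit can destabilise the whole assembly.

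On each array between 39.8% and 40.8% of all probes had a detection p under 0.05, the share of negative control beads at or above the probe, and the median probe rested on 20 or 21 beads. Of 8 basal epithelial genes listed, KRT6A and KRT17 had no probe annotated to them alone. The basal epithelial genes KRT5, KRT14, EGFR, CDH3, ITGB4 and LAMB3 were above background on all 4 arrays. So were the luminal genes FOXA1, GATA3, KRT18 and KRT8, while the luminal receptor genes ESR1 and PGR were above background on none. KRT19, the remaining luminal marker, was above background on some arrays, but no probe of it was on all 4. The fibroblast genes COL1A2, COL3A1, DCN, LUM and PDGFRB, the leukocyte genes PTPRC and CD3E and the endothelial genes CDH5 and VWF were also above background on no array. The remaining fibroblast marker, COL1A1, was above background on some but not all of the arrays. CD68, the other leukocyte marker, was above background on all 4. Intensities summed over a marker list were not normalized. The summed intensity of 7 luminal markers lay at 4441 to 4681 with control siRNA and 7097 to 8892 with Slug siRNA. Of those 7, 4 were above background on all arrays. The highest single reading among the luminal markers was 6322, so 1 gene can carry most of a sum. The luminal sums therefore do not show a shift of the whole list. The 6 basal markers with a probe summed to 11549 to 12052 with control siRNA and 12955 to 12974 with Slug siRNA. The 3 endothelial markers, of which PECAM1 alone was above background on all arrays, summed to 713 to 858 with control siRNA and 538 to 654 with Slug siRNA. The part of these shifts in the results below was not tested.

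ANAPC1, the largest scaffold protein, was measured by 2 probes annotated to the same transcript. On both, the Slug siRNA arrays lay below the control arrays, as in 21.5% of all genes with 1 probe each. The brighter probe read 659 ± 27.6 and 645 ± 26.1 intensity units (± bead SE) in control siRNA replicates 1 and 2. In the Slug siRNA replicates it read 276 ± 12.0 and 289.6 ± 10.3. Replicates of a group lay within about their bead errors of each other, and the groups stood far apart. On the normalized log2 scale the means were 9.15 ± 0.025 for control siRNA and 7.50 ± 0.058 for Slug siRNA (SD, n = 2 each). This is a log2 fold change of -1.65, or 31.8% of control. The difference was -1.71 within replicate 1 and -1.60 within replicate 2. The authors' own normalized intensities for it were 614 and 599.8 with control siRNA, against 180.3 and 192 with Slug siRNA. Only 9 of 11200 measured genes, ANAPC1 among them, had a log2 fold change this low.

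The second ANAPC1 probe read 254 and 267 intensity units with control siRNA and 238 and 233 with Slug siRNA. It kept the direction at a smaller size, with a log2 fold change of -0.34, or 78.9% of control. Its group means were 7.41 ± 0.096 and 7.06 ± 0.045 (SD, n = 2 each). The 2 probes thus differed by 1.31 in log2 fold change, and the mean over both gave 50.1% of control. Among 2920 genes with more than 1 probe above background, the median spread between probes of a gene was 0.16. In 5 of these genes, or 0.171%, ANAPC1 itself among them, it was at least as wide as in ANAPC1, a gene reached through its extreme probe. RefSeq annotates 6 pseudogenes of ANAPC1 and 11 of CDC27. Whether their transcripts bind these probes was not tested, since probe sequences were not used here.

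**Figure D1:**
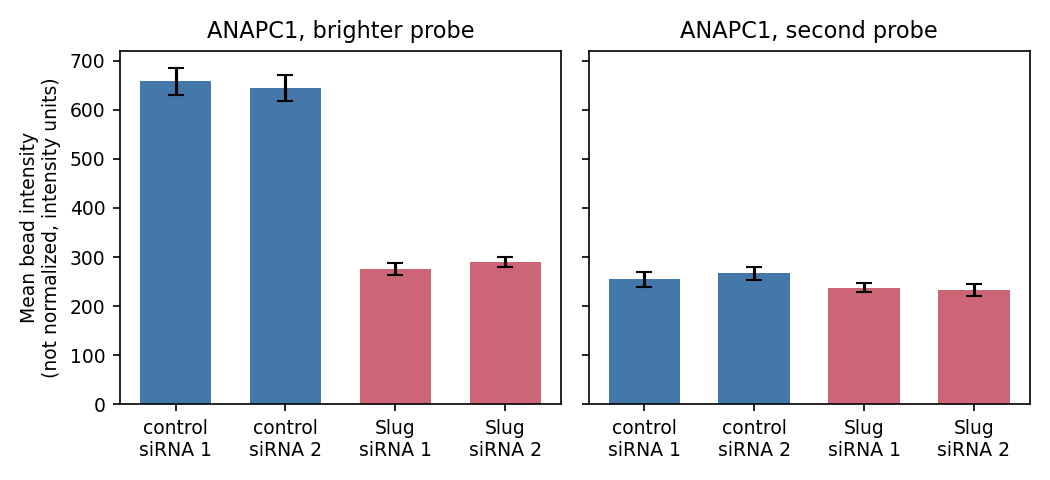
Deposited bead intensities of the 2 ANAPC1 probes on each array, with bars from 0 and whiskers for the bead standard error. The brighter probe goes from 659 and 645 units to 276 and 289.6, while the second goes from 254 and 267 to 238 and 233.

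Slug binds the E-box CAGGTG, read as CACCTG on the opposite strand. The promoter windows of ANAPC1 and of 2 partners, CDC16 and ANAPC7, are printed so that the gene with the low value can be set beside subunits that hold this motif. The sequences come from RefSeq and run 5′ to 3′ on the strand of the gene, from 250 bases before to 50 after its start, with the motif in capitals.
ANAPC1 promoter, GRCh38.p14, chr2:111884144-111884443, minus strand: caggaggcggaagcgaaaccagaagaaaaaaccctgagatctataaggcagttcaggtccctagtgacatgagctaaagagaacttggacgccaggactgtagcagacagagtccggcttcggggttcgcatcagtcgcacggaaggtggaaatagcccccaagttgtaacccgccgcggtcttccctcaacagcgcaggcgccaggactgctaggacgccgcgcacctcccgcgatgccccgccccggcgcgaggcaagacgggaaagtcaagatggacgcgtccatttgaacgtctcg
CDC16 promoter, GRCh38.p14, chr13:114234647-114234946, plus strand: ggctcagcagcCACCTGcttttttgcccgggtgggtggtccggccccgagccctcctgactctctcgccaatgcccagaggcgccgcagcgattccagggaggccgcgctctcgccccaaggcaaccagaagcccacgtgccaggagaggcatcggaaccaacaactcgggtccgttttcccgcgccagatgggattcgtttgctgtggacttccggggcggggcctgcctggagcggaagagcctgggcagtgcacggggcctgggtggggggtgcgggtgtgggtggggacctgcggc
ANAPC7 promoter, GRCh38.p14, chr12:110403659-110403958, minus strand: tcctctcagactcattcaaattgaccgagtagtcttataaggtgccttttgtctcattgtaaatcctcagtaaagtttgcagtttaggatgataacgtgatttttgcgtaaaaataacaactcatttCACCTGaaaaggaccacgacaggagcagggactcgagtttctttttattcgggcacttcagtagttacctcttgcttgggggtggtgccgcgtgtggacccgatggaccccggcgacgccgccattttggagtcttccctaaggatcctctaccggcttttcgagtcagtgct
The ANAPC1 window holds neither form. CACCTG begins at position -239 from the gene start in CDC16 and at -123 in ANAPC7. ANAPC11 also holds it, in 1 of its alternative windows, at -48. In all, 3 of the 16 windows annotated for the 10 genes hold the motif on either strand, against 20.6% of 35116 promoter windows of this length. A match is a description and not a binding site, and a window without one says only that these letters are not in it.

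Of the 10 core genes 8 were measured, meaning that at least 1 probe had a detection p under 0.05 on at least 2 arrays, a filter that 12 of the 18 probes passed. ANAPC1 was the only 1 of the 8 past the limma adjusted threshold of 0.05, against 0.116% of all 11200 genes, and nothing is read from that count since the same comparison chose ANAPC1. The count went to 0 when replicate 1 of either group was left out, with no filter on dim probes and with the authors' normalized values. None of the other 7 measured subunits passed, and at an unadjusted p under 0.05 none did either, where 13.0% of all genes did. Their limma adjusted p ran from 0.520 to 0.925 (2 arrays per group). Their levels after Slug siRNA lay between 89.1% and 133% of control. In log2 fold change 4 were positive and 3 negative, with a median of 0.065 beside 0.010 over all genes. The groups did not overlap in 3 of the 7, beside 45.1% of all genes. Of the 3, 1 was lower and 2 were higher with Slug siRNA, beside 21.5% and 23.6% of all genes. The 95% limma interval lay above -1, a halving, for all 7, and the lowest bound among them was -0.57. In a bulk culture, fewer cells at a stage of the cycle and less RNA per cell cannot be told apart.

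**Figure D2:**
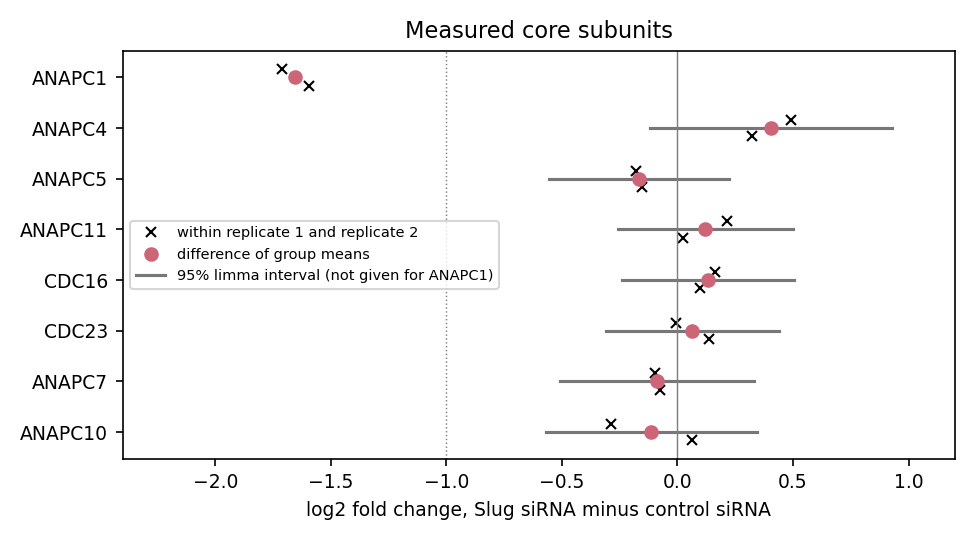
Log2 fold change of Slug siRNA minus control siRNA for the 8 measured core subunits. Circles are differences of group means, crosses the differences within each replicate number, lines the 95% limma intervals, and the dotted line a halving. ANAPC1 stands at -1.65 and the other 7 between -0.17 and 0.41. The second ANAPC1 probe, at -0.34, is not drawn.

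Of the scaffold partners, ANAPC4 had a positive value and ANAPC5 a negative one, neither past the threshold, and the difference between the 2 was not tested. ANAPC4 read 375 and 491 intensity units with control siRNA and 505 and 622 with Slug siRNA. On this scale both Slug siRNA arrays lay above both controls. After normalization the log2 values were 8.16 and 8.66 with control siRNA and 8.65 and 8.98 with Slug siRNA, so the groups overlapped narrowly there. The log2 fold change of ANAPC4 was 0.41 (SE 0.22, 95% interval -0.12 to 0.93, limma adjusted p = 0.520), the highest of the core. ANAPC4 was also higher in replicate 2 than in replicate 1 of both groups, by 0.50 with control and 0.33 with Slug siRNA on the log2 scale. These steps between replicates were about as large as the step between groups. ANAPC5 read 1587 and 1762 with control siRNA, and 1448 and 1679.9 with Slug siRNA. On the normalized scale both Slug siRNA arrays lay below both controls, by a log2 fold change of -0.17 (SE 0.17, interval -0.56 to 0.22, adjusted p = 0.759 by limma).

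In the catalytic centre, the RING subunit ANAPC11 was read by 2 of its 5 probes. The brighter of the pair gave 2773 and 2963 intensity units with control siRNA and 3232 and 3214 with Slug siRNA. Its Slug siRNA arrays lay above both controls, with a log2 fold change of 0.12 (SE 0.16, limma adjusted p = 0.834). The second probe gave -0.03 with overlapping groups, so the probes did not share a sign. The remaining 3 ANAPC11 probes, annotated to other transcript accessions, did not pass the filter. One of them was above background on control siRNA replicate 2 alone, and the others on no array. ANAPC2, the cullin of the complex, had 2 probes, and neither passed the filter. One was above background on a single control array, at 126 units, and the other on none. No fold is given for ANAPC2, since a dim probe on these arrays does not show that the RNA is absent.

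Among the tetratricopeptide subunits, CDC16 had 3 probes above background. The brightest gave 1724 and 1862 intensity units with control siRNA and 1971 and 2077 with Slug siRNA. The groups did not overlap on that probe, at a log2 fold change of 0.13 (SE 0.16, limma adjusted p = 0.811). The others gave 0.12 and -0.06, each with overlapping groups. CDC23 read 845 and 788 with control siRNA, and 867 and 914 with Slug siRNA. On the normalized scale its groups overlapped, at a log2 fold change of 0.06 (SE 0.16, limma adjusted p = 0.925), the nearest to 0 of the measured core genes. ANAPC7 read 241 and 218 with control siRNA against 240.0 and 221 with Slug siRNA, at a log2 fold change of -0.09 (SE 0.18, limma adjusted p = 0.905). It was the only measured core gene that was lower in replicate 2 than in replicate 1 of both groups, with log2 differences of -0.24 and -0.22. CDC27, a repeat protein that helps bind coactivators, had a single probe that was above background on no array, and its level is not given.

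ANAPC10, the subunit that helps hold substrates, read 569 and 596 intensity units with control siRNA, and 499.6 and 649.8 with Slug siRNA. The Slug siRNA arrays lay on either side of the controls. The log2 difference was -0.29 within replicate 1 and 0.06 within replicate 2, and the mean was -0.11 (SE 0.19, interval -0.57 to 0.34, limma adjusted p = 0.882). Over the 8 measured genes, 4 were higher in replicate 2 of both groups and 1 was lower in both.

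**Figure D3:**
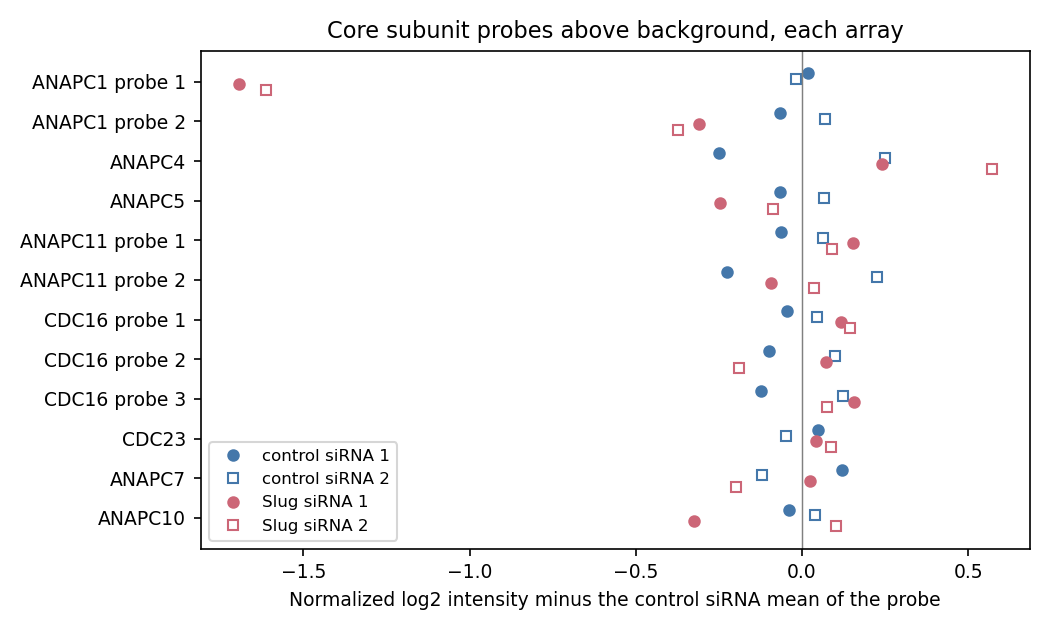
Normalized log2 intensity of each of the 12 core probes above background on each array, as the difference from the control siRNA mean of that probe. The brighter ANAPC1 probe (probe 1) sits near -1.65 with Slug siRNA, and no array of the other 11 probes lies that low.

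By the Euclidean distance between log2 values centred on their mean over the 4 arrays, the genes nearest to ANAPC1 were GLCE (0.13), MT1E (0.14), BCL7B (0.18), NUP160 (0.18) and GSDME (0.19). GLCE encodes an epimerase of heparan sulfate synthesis, MT1E a metallothionein, BCL7B a chromatin remodelling subunit, NUP160 a nuclear pore protein and GSDME a gasdermin. All 5 had a log2 fold change below -1, with GSDME lowest at -1.81, which the choice by distance fixes. None of the measured core subunits was near: ANAPC5, the closest of them, lay at 1.49 and ranked 2500 in nearness. The distance is taken to the profile of ANAPC1, which its own low value sets, so a gene with little change lies far. These distances therefore restate the fold changes and are no further support.

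The 4 small subunits of the complex, ANAPC13, ANAPC15, ANAPC16 and CDC26, were all measured and none passed the threshold. ANAPC13, which stabilises the repeat subunits, had log2 values of 11.47 and 11.44 with control siRNA and 11.80 and 11.79 with Slug siRNA. Replicates were close together and the groups did not overlap, at a log2 fold change of 0.34 (SE 0.16, limma adjusted p = 0.424). ANAPC16 stood at -0.30 (adjusted p = 0.688), CDC26 at 0.04 and ANAPC15 at 0.00, with overlapping groups for each in this limma fit. The median of the 4 was 0.02.

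Of the coactivators, which bring substrates to the complex, both had negative values and neither passed. FZR1, the coactivator of late mitosis and G1, was dim. Its brighter probe had log2 values of 5.09 and 5.81 with control siRNA, and 5.01 and 4.79 with Slug siRNA, the last not above background. The measured means differed by -0.55 on the log2 scale (SE 0.25, adjusted p = 0.431 in limma), a value that includes the array at background. Leaving out control siRNA replicate 1 gave -0.91 and leaving out control siRNA replicate 2 gave -0.19. The value was -0.29 with an offset of 50 and -0.17 with no background correction. The second FZR1 probe was not above background on either Slug siRNA array. Its control mean was at least 1.31-fold higher, counted against the lowest signal among probes above background on those arrays. This bound was not tested, and the limma adjusted p of the measured difference of that probe was 0.190. CDC20, the mitotic coactivator, had log2 values of 12.56 and 12.85 with control siRNA and 12.61 and 12.33 with Slug siRNA (adjusted p = 0.683 by limma). Of the conjugating enzymes, UBE2C, which starts ubiquitin chains, stood at 0.06 (limma adjusted p = 0.955), from 0.45 within replicate 1 and -0.33 within replicate 2. UBE2S, which extends chains, was not above background on any array. No probe was annotated to UBE2D1 alone, so that gene was not measured.

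None of the 6 inhibitors and checkpoint genes passed, with a median log2 fold change of 0.10. The values ran from -0.21 for BUB1B, a kinase-like part of the mitotic checkpoint complex, to 0.22 for MAD2L1BP, which helps silence the checkpoint (limma adjusted p = 0.651 and 0.688). The 18 substrates, proteins that the complex marks for destruction, had a median of -0.14, with 13 negative and none past the adjusted threshold, and 48.4% of all genes were negative. AURKA, a mitotic kinase, was lowest: its log2 values were 11.13 and 11.18 with control siRNA and 10.85 and 10.65 with Slug siRNA. AURKA stood at -0.40 (SE 0.17, adjusted p = 0.382 in limma) and was the 1 of 18 substrates whose representing probe had an unadjusted limma p under 0.05, beside 13.0% of all genes. The other AURKA probe stood at -0.345 (limma adjusted p = 0.540). PTTG1, securin, named after its values were seen, stood at -0.36 on its brighter probe and -0.46 on its second (limma adjusted p = 0.453 and 0.356). That second probe also had an unadjusted p under 0.05. GMNN, geminin, which blocks relicensing of replication origins, was highest at 0.53 (SE 0.28, limma adjusted p = 0.498), with overlapping groups. The substrates were lower with Slug siRNA in 5 of 18 cases within replicate 1 and in 16 of 18 within replicate 2, with medians of 0.09 and -0.27. Over all genes 47.7% and 49.6% were lower within those replicates. For the 7 measured core partners of ANAPC1 the corresponding medians were -0.0066 and 0.063. Transcript levels carry no information on how much of these proteins was degraded.

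**Figure D4:**
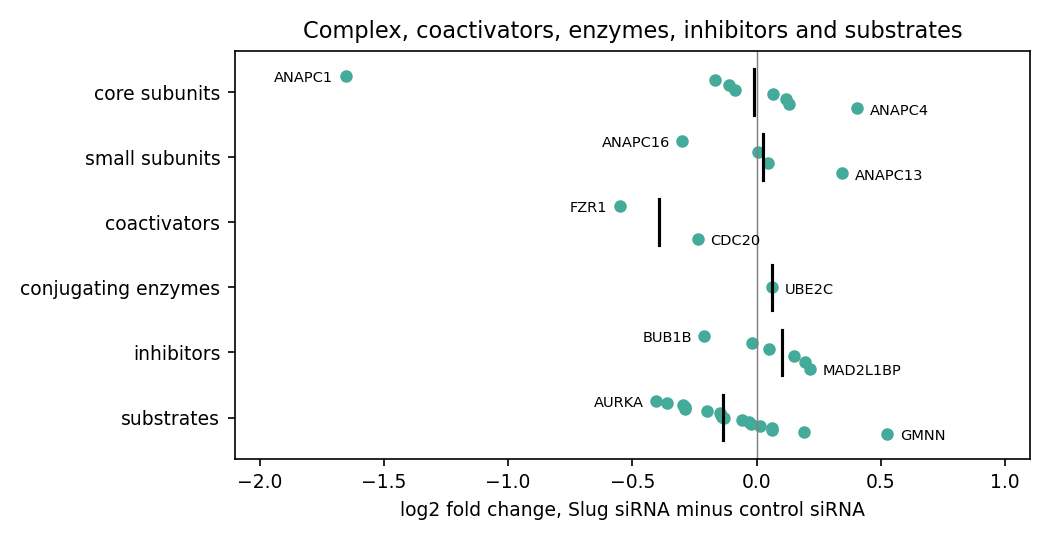
Log2 fold change of Slug siRNA minus control siRNA for the measured genes of the core and of 5 lists of the pathway, 1 point per gene, with black bars for list medians and names for the lowest and highest gene of each. ANAPC1 at -1.65, on the probe that chose it, lies apart from all other points, which lie between -0.55 and 0.53. Its second probe, at -0.34, is not drawn and falls within that range.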

How the data were processed

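The values used were the mean bead intensities per probe that the authors deposited, not normalized per the file headers and on a linear scale. The deposited table also gave a detection p-value, a bead standard error and a bead number for each probe and array. Its 8 other per-sample columns were not used. Among the 12 core probes kept, values rested on 12 to 39 beads, with a bead error of 1.86% to 6.37% of the signal. Precision is limited by the number of arrays, since beads are no replicates. The authors' deposited normalized intensities were an alternative only; their method is not given in the sources used here.

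Background was removed with limma 3.58.1 (neqc, a normal-exponential model) in R 4.3.3, with the negative controls reconstructed from the detection p-values. An offset of 16, quantile normalization and log2 followed. The offset stays in the signal, so changes of dim probes are understated. Probes with a detection p under 0.05 on at least 2 arrays were kept (19446 of 47323). Groups were compared with lmFit and eBayes, group being the only term, in two-sided tests. P-values were adjusted by Benjamini-Hochberg over every kept probe, with 0.05 as the threshold. The kept probe with the highest mean stood for its gene. By the platform annotation 30113 probes have 1 gene symbol, 8 have several and 17202 have none. The procedure was tested on simulated data, but the outcome is not given here and no result rests on it. Figures were drawn with matplotlib 3.10.9.

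All core members are named whatever their values, as are the small subunits, coactivators and conjugating enzymes. The inhibitor and substrate lists give their lowest and highest gene, and the 5 genes nearest to ANAPC1 are named. The members, lists and alternatives were chosen with earlier results of these data known.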

Additional observations from a re-analysis of the deposited data

How the results depend on the processing

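ANAPC1's log2 fold change on its brighter probe, -1.65, was -1.26 with no background correction, -1.49 with an offset of 50 and -0.998 with the mean over its probes. With 1 array left out in turn it ranged from -1.70 to -1.61. The median of the other core subunits, 0.065, was 0.11 with median scaling and 0.046 with the mean over probes, and ranged from 0.016 to 0.089 with 1 array left out. None of these 7 genes passed limma's adjusted threshold under any of the 12 alternatives, and ANAPC10 and ANAPC7 changed sign in 1 and 2 of them. The number of core genes past the threshold, 1 in all, was 0 with no filter on dim probes and with the authors' normalized values, and 0 to 1 with 1 array left out. Over all probes 13 passed (4 higher, 9 lower). That number was 226 with no background correction, 42 with median scaling, 328 with an offset of 50, 0 with no filter, 189 with a detection p under 0.01 on all arrays, 3 (2 higher, 1 lower) with the authors' values, and 3 to 26 with 1 array left out. The causes of these shifts were not tested. With the replicate number as a block 549 probes passed, and the core count was again 1. No label says what same-numbered arrays share, and their deviations from the group means correlated at r = 0.36 across probes, so the block is given here only. The values limit what can be said of dim probes: 6 of the 18 core probes, at 108 to 127 intensity units, lay at background on at least 3 of the 4 arrays.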
